A study of Mus musculus with 13 samples.

Results

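Long rows of glucocorticoid receptor (GR) peaks were assigned to 8 genes in mouse embryonic fibroblasts: 1700001F09Rik, Gm21119, Zfp982, Zfp709, Gm21190, Speer4cos, Gm5458 and 6820431F20Rik. They were chosen by symbol, with their peak numbers known, so those numbers, their spacing and their classes are descriptions. The p-values given below for their Dex peaks therefore decide nothing. Of 8726 genes that had a peak in any list, these 8 held 331 of 26052 peaks. They had 262 of 24673 peaks (1.06%) in cells given dexamethasone (Dex, a synthetic glucocorticoid) together with LPS (lipopolysaccharide, a bacterial wall molecule that triggers inflammation), and 69 of 1379 peaks (5.00%) in cells given Dex alone.

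GR is a nuclear receptor that binds glucocorticoids, enters the nucleus and regulates genes either by binding DNA itself or through other DNA-bound factors. Chromatin immunoprecipitation with sequencing (ChIP-seq) finds its binding as places where reads pile up. Segmental duplications, tandem gene families and repeats hold near-identical copies of one sequence, so that a short read can fit several places and a copy missing from the assembly adds its reads to the copies that are present. Zinc finger (Zfp) genes stand in such tandem clusters in the mouse, and the Speer genes, named for glutamate-rich proteins of spermatogenesis, form another. The sources used here do not say how reads that fit several places were treated.

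The labels describe fibroblasts cultured for 7 days from male C57BL/6 embryos taken 13.5 days after the plug. The embryos were of genotype GR Zn/Zn (the mutant, with a changed zinc finger in the DNA-binding domain of the receptor), GR knockout or GR wild type. The mutant, knockout and wild-type cells given 1 µM Dex for 16 h and LPS for 3 h (100 ng/µl as labelled) gave 4, 2 and 3 libraries, and the mutant and wild-type cells given Dex alone gave 2 and 2 libraries. The Dex+LPS libraries reached the deposited files as merged lists with knockout peaks removed: 2187 peaks were mutant-specific, 3533 shared and 18953 wild-type-specific, each 200 bp wide. They have no spread between replicates. The Dex libraries had 1 list each, of 53 and 60 peaks in mutant cells and 412 and 854 peaks in wild-type cells. No knockout list was used here. Chromosomes other than 10 to 14 held 39 and 41 of the mutant Dex peaks, but only 131 and 223 of the wild-type Dex peaks, so the wild-type Dex lists stand apart in their spread over the genome. The files hold positions and no read number, height or score, so depth is unknown and neither the cell type nor the genotype could be checked by a level.

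Near-copies are visible in the promoters of these genes. The RefSeq promoter table of GRCm38.p6 (the assembly of mm10, the build of the files) holds 250 bases before to 50 after each gene start for 5 of the 8 genes, and 4 of these 5 had a near-copy, an alignment of at least 90% identity over at least 200 bases with the promoter of another gene. Gm5458 had near-copies at 33 genes and Gm21190 at 21, Zfp982 at 6 and Gm21119 at 3, all on the chromosome of the gene itself, whereas Zfp709 had 0. Over the table, 2097 of 27025 genes (7.76%) had a near-copy. For Gm21119 the promoters of 4930467E23Rik and Gm15319 were the same in all 300 bases. The next sequences show a near-copy and a looser likeness. The near-copy pair is Zfp982 (chr4:147492167-147492466, plus strand) and Rex2, a neighbouring zinc finger gene (chr4:147021600-147021899, plus strand). Capitals mark the bases that align and are the same in both, 264 of 284 aligned (93.0%). Gaps are left out of this count, whereas the identity behind the near-copy limits includes them.
Zfp982: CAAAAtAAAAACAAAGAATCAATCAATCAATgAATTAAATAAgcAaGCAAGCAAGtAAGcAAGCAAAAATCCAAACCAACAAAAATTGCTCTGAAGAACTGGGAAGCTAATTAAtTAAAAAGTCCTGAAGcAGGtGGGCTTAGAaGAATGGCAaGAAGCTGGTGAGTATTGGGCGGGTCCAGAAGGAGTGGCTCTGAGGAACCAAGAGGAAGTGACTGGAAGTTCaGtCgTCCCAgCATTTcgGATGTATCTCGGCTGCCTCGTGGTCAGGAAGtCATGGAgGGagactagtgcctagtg
Rex2: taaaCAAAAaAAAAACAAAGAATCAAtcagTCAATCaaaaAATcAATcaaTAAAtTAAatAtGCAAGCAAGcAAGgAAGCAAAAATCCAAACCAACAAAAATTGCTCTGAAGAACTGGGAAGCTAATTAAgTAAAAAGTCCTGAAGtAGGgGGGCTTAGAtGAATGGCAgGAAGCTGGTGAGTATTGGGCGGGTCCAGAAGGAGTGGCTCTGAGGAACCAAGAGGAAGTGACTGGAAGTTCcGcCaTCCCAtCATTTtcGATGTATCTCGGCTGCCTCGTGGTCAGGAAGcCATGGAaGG
The looser pair, below the limits for a near-copy, is Gm21190 (chr5:15529173-15529472, minus strand) and Gm5458 (chr14:19602538-19602837, minus strand), which share a stretch although they lie on different chromosomes. In that stretch 101 of 127 aligned bases are the same (79.5%), again in capitals and with gaps left out of the count.
Gm21190: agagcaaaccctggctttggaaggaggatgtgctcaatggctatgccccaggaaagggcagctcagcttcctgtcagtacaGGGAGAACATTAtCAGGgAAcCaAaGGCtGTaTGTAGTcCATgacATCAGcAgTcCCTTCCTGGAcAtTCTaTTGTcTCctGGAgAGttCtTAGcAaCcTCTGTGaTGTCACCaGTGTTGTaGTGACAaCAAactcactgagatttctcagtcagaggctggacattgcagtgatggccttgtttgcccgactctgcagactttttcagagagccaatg
Gm5458: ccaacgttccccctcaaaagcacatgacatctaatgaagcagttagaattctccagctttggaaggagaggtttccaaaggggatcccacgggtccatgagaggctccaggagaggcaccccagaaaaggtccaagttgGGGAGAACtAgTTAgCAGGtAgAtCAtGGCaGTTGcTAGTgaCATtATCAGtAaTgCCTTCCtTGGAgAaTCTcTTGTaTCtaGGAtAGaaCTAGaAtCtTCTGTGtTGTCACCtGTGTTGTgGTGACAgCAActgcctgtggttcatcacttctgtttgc
The promoter of Gm21119 (chr8:20614677-20614976, plus strand) is shown for its match to AGAACA, the hexamer at the core of GR recognition elements (TGTTCT on the other strand), in capitals.
Gm21119: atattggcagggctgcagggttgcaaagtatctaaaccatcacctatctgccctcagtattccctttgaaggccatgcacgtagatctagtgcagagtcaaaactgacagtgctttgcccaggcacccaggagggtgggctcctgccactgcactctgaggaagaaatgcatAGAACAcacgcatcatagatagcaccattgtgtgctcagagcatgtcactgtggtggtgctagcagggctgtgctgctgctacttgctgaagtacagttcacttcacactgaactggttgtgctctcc
Among all 32851 promoters of the table, 6233 (19.0%) held this hexamer on either strand. Those of Gm21119 and Gm21190 held 1 match each and those of Zfp709 and Gm5458 held 0. The table has 3 promoters of Zfp982, of which only the printed promoter was counted singly, with 0 matches. No GR peak of any list overlapped the promoters printed here, so these letters do not show bound DNA. Whether interspersed repeats were dense at the loci was not measured, because no genome sequence or repeat annotation was used here.

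Under Dex+LPS, Gm21119 carried 12 mutant-specific peaks, 18 shared and 43 wild-type-specific ones. 1700001F09Rik carried 2, 9 and 60 in the same order of classes. Zfp982 carried 7 mutant-specific peaks, 8 shared and 37 wild-type-specific ones, and Zfp709 carried 6, 12 and 18. The chromosome 5 pair was smaller, with 1 mutant-specific peak, 2 shared and 14 wild-type-specific ones at Gm21190 and 2, 0 and 10 at Speer4cos, a transcribed pseudogene of the Speer family. Gm5458 had a single shared peak, and 6820431F20Rik, another transcribed pseudogene, had no Dex+LPS peak. Wild-type-specific peaks were thus the most numerous class at each of the 6 genes with 10 or more peaks. This class also led over all genes, with 18953 of 24673 peaks, against 182 of 262 at the 8 genes. For scale, Mir3084-1, to which the files give a span of many megabases, had 156 peaks and Tnc, the gene of the matrix protein tenascin C, had 50.

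**Figure D1:**
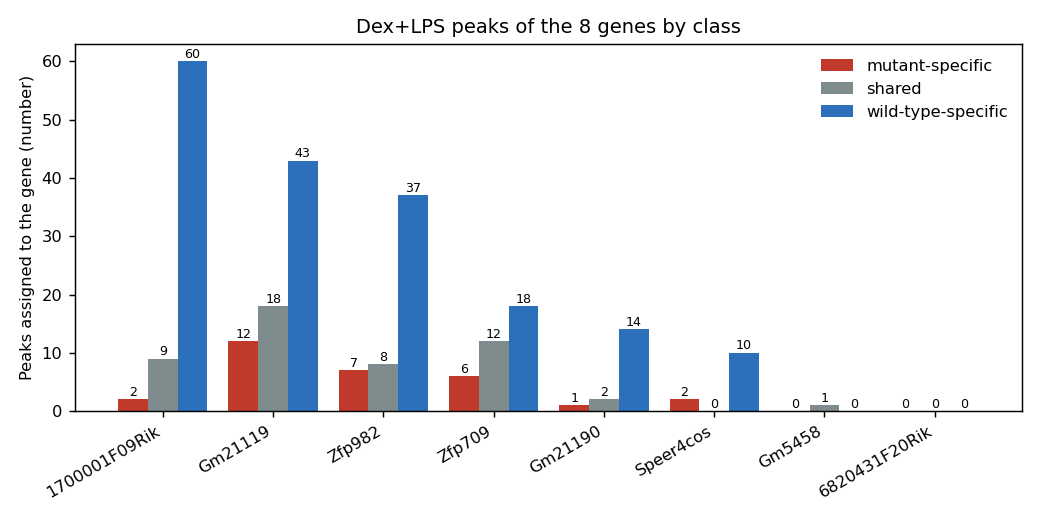
Number of Dex+LPS peaks assigned to each of the 8 genes (vertical axis), as bars by class (mutant-specific, shared or wild-type-specific). Peaks of the last class lead at every gene with 10 or more peaks, from 10 at Speer4cos to 60 at 1700001F09Rik, and they also lead over all genes.

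The mutant-specific share was near that of all genes. The shared share was above that of all genes, and its interval held that of the other genes with 10 or more peaks. Of the mutant cells' Dex+LPS peaks at these genes, 30 of 80 (37.5%, 95% interval 26.9 to 49.0) were mutant-specific, beside a background of 38.2% over all genes. Of the wild-type cells' peaks, 50 of 232 (21.6%, 16.4 to 27.4) were shared with the mutant, beside a background of 15.7%. At the other genes with 10 or more peaks it was 18.2% (17.1 to 19.4). Among the 6 listed genes with 10 or more peaks that share ran from 40.0% at Zfp709 (22.7 to 59.4) and 29.5% at Gm21119 to 17.8% at Zfp982, 9 of 69 at 1700001F09Rik, 12.5% at Gm21190 and 0 of 10 at Speer4cos, and the only peak of Gm5458 was shared. Without Gm21119 the share over the listed genes was 18.7% (13.2 to 25.4), an interval that holds the 15.7% of all genes. Intervals are exact Clopper-Pearson binomial intervals and cover counting error only, and the peaks of one locus are not independent.

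The peaks stood close together. Neighbouring Dex+LPS peaks of the same gene began a median of 2272 bp apart (quartiles 1018 and 6188.5 bp, 255 distances). The 341 other genes with 10 or more peaks had a median distance of 10305 bp, and 9284.5 bp without the 15 genes whose spans exceed 1 Mb. Of the distances, 23.9% were under 1 kb at these genes and 12.1% at those other genes. Zfp709 was the tightest, with a median of 910 bp, which ranked 2 among 347 genes after Ifih1, a sensor of viral RNA, with 811 bp. 1700001F09Rik had a median of 1535 bp, Gm21190 2108.5 bp, Gm21119 3704.5 bp, Zfp982 4058 bp and Speer4cos 5669 bp, ranks 23, 47, 81, 87 and 106. Each of the 6 genes had a shorter median distance than the middle gene of the 341 others (11954 bp), which follows in part from the peak numbers that chose them.

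**Figure D2:**
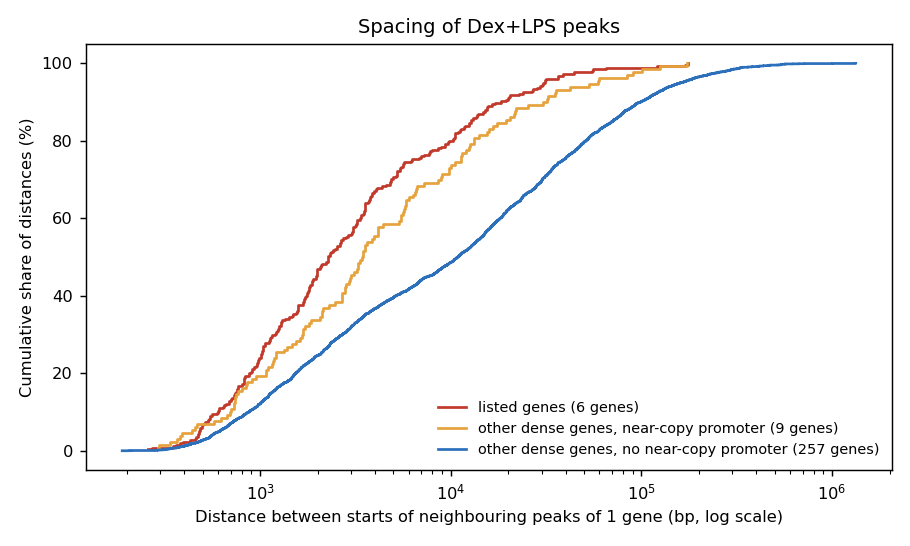
Cumulative share of distances (percent, vertical axis) between the starts of neighbouring Dex+LPS peaks of one gene (bp, log scale) at 6 of the listed genes, at 9 other genes of 10 or more peaks with a near-copy promoter and at 257 without one. The curves reach 50% at 2272, 3431 and 10900 bp.

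Promoter near-copies offer a grouping of the other genes that does not use their peaks. Of the 266 other genes with 10 or more peaks and a promoter in the table, 9 (3.38%) had a near-copy, and their peaks were a median of 3431 bp apart, against 10900 bp at the 257 genes with none. By class, 39 of 51 mutant peaks (76.5%, 62.5 to 87.2) at those 9 genes were mutant-specific, against 39.0% (36.0 to 42.1) at the 257 genes. Prl2c3, a gene of the proliferin family of placental hormones, gave 14 of these peaks and Sprr2a1, a gene of cornified skin proteins, 8. Over all 168 other genes with a near-copy promoter the mutant-specific share was 70.9% (63.5 to 77.5), and it was 36.3% (34.9 to 37.8) over 6430 genes without. The 8 listed genes together, at 37.5%, were near the genes without near-copies, but they mix genes with and without a near-copy promoter. At the 4 that have one, mutant-specific peaks were 12 of 30 mutant peaks at Gm21119, 7 of 15 at Zfp982, 1 of 3 at Gm21190 and 0 of 1 at Gm5458. Peaks within a locus share their source, so the intervals are too narrow, and the difference was not tested over samples.

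The 6 other genes with most peaks, leaving out those with a span over 1 Mb, ran from tight to loose arrays. Tnc had 15 mutant-specific peaks, 13 shared and 22 wild-type-specific ones a median of 1104 bp apart, and 3110039I08Rik had 13, 6 and 14 a median of 1484 bp apart. Prl2c3, with near-copies at 2 genes, had 14, 3 and 15 at 3261 bp. Flrt2, which encodes a leucine-rich membrane protein, had 34 peaks at 19872 bp, Tns3 (tensin 3, a focal adhesion protein) 34 at 10440 bp and Foxp1 (a forkhead transcription factor) 33 at 14854 bp.

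Counted over the genome in 100 kb windows, whatever gene the peaks were assigned to, the fullest of 10674 windows with a peak was that of Zfp709, with 39 peaks, 36 of them carrying its name. The next 2 windows held 35 and 33 peaks of 1700001F09Rik. Windows led by Zfp982, Gm21190 and Gm21119 held 23, 19 and 18 peaks, and the median window held 2. Windows at the listed genes made up 4 of the top 10 and 6 of the top 20.

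When peaks of one gene within 1 kb of each other were joined into runs, the 262 peaks formed 185 runs, of which 47 had 2 or more peaks and 24 of those mixed classes. The other genes with 10 or more peaks had 4958 peaks in 4246 runs, of which 498 had 2 or more peaks and 220 of those mixed classes. At Zfp709, 34 of 36 peaks lay in 11 such runs, the longest of 7 peaks, and 7 runs mixed classes. At Speer4cos no peaks were joined. The 30 mutant-specific peaks lay a median of 1825 bp from the nearest peak found in wild type, and 11 of them (36.7%, 19.9 to 56.1) lay within 1 kb. At the other genes with 10 or more peaks these values were 2690 bp and 26.8%, and at all other genes 7804 bp and 19.1%. One mutant-specific peak of Zfp982 (147250070 to 147250269 on chromosome 4) was 58 bp from a wild-type peak and another (147331982 to 147332181) 25669 bp from one.

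The names given to the peaks rest on gene models. The files' calls place 136 of the 262 Dex+LPS peaks (51.9%, 45.7 to 58.1) inside the named gene, beside a background of 47.0%. Of the 262, 21 (8.02%) overlapped the body that RefSeq gives the gene, beside a background of 49.2% over all genes matched to RefSeq and 46.0% at the other genes with 10 or more peaks. Gm21119 has the longest span of the 8: the annotation of the Dex+LPS lists gives it 911128 bp, from 19729576 to 20640703 on chromosome 8, and the annotation of the Dex lists 25785 bp. The long span begins 885 kb before the RefSeq gene (20614404 to 20646749) and overlaps 18 other RefSeq genes, and 60 of its 73 peaks count as inside it, against 8 in the RefSeq body. Zfp982 has a span of 381328 bp in the Dex+LPS lists and 21070 bp in the Dex lists, against a RefSeq gene at 147443114 to 147516064 on chromosome 4. There 48 peaks count as inside and 7 lie in the RefSeq body. Gm21190 (RefSeq 15524456 to 15529222 on chromosome 5) has 55407 and 4767 bp, and none of the 13 peaks called inside it lies in the RefSeq body. Speer4cos (15680710 to 15714596) has 178584 and 33887 bp, with 11 called inside and 1 in the body.

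The other loci hold peaks outside any such span. Zfp709 (71882068 to 71892565 on chromosome 8) had all 36 peaks upstream, the nearest 22082 bp from its start and all within 51.1 kb of sequence, or 70.5 peaks per 100 kb. 1700001F09Rik (43342384 to 43347811 on chromosome 14) had 50 peaks downstream and 16 upstream over 308 kb. The Zfp982 locus had 12.8 peaks per 100 kb over 405 kb, the joint locus of Gm21190 and Speer4cos 12.7, and that of Gm21119 and 6820431F20Rik 7.11 over 1026 kb.

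**Figure D3:**
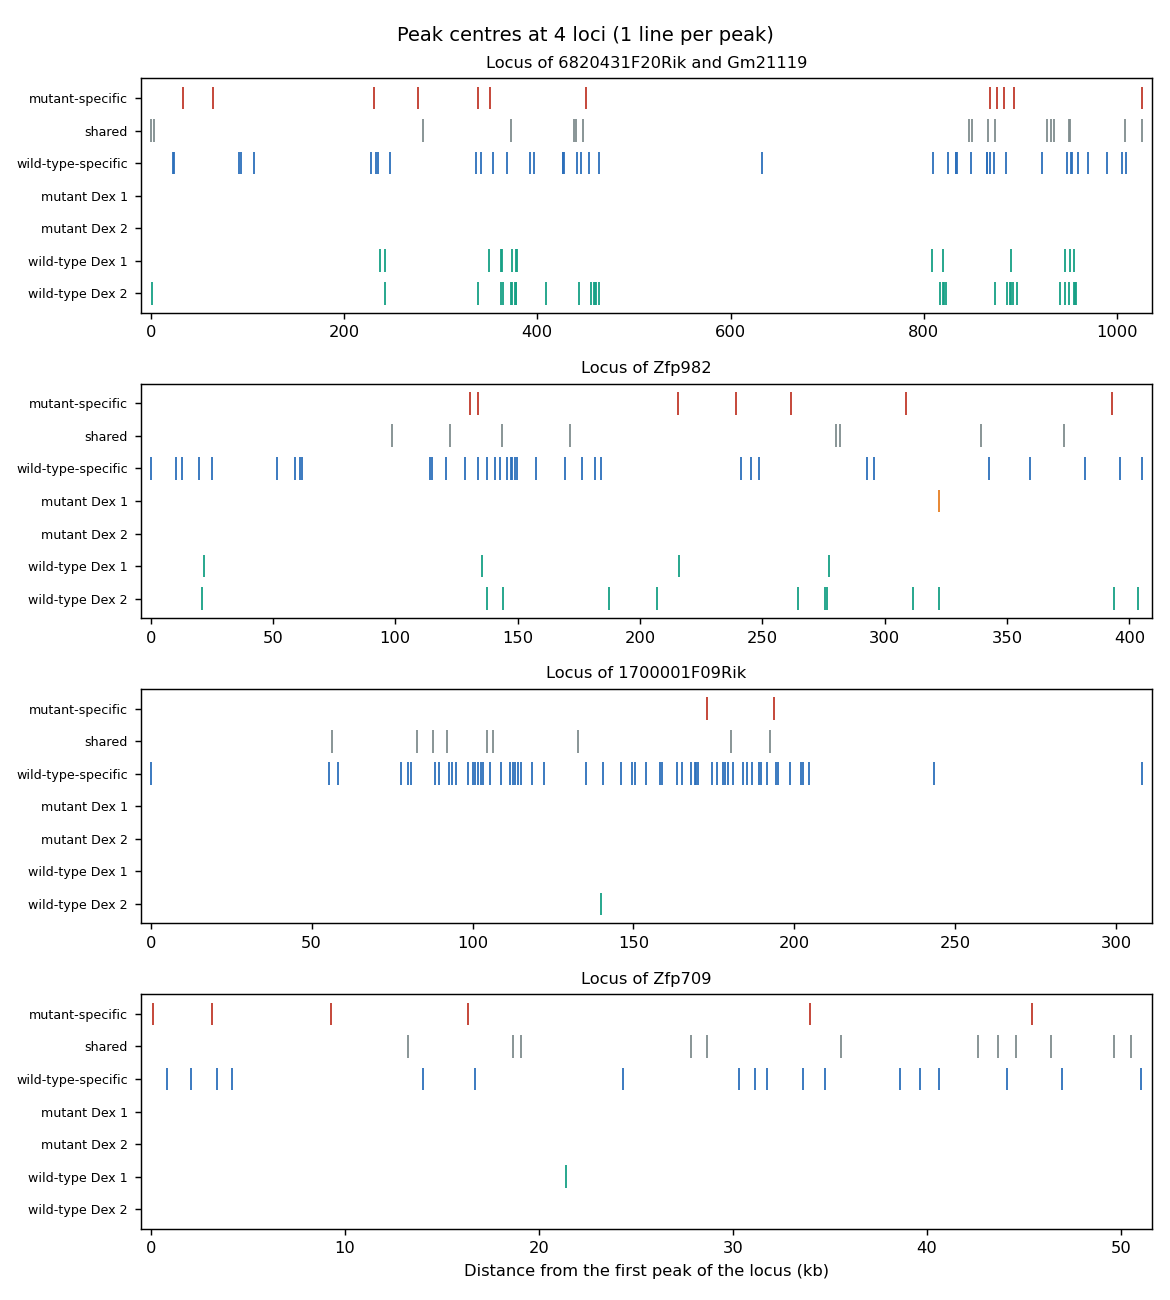
Positions of Dex+LPS peaks by class and of Dex peaks by library at 4 loci (6820431F20Rik with Gm21119, Zfp982, 1700001F09Rik and Zfp709), 1 line per peak, as distance in kb from the first peak of each locus. The classes are interleaved, and mutant Dex libraries have 1 peak over these loci, at Zfp982.

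On chromosome 8 one stretch of 126 kb (20023800 to 20149879) changes its name between the lists. Its Dex peaks, 0 and 0 in mutant libraries and 6 and 15 in wild-type libraries, carry the name 6820431F20Rik, a pseudogene at 20268286 to 20297432. Its Dex+LPS peaks, 3 mutant-specific, 4 shared and 12 wild-type-specific, carry the name Gm21119. The stretch held peaks in both sets of lists, although no Dex+LPS peak carries the name 6820431F20Rik.

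In the Dex lists the 8 genes had 4 and 3 peaks in mutant libraries, against 18 and 44 in wild-type libraries, and the groups did not overlap. Nor did the whole lists, with 53 and 60 peaks in mutant libraries against 412 and 854 in wild-type libraries. The mean at the 8 genes was 3.5 ± 0.707 in mutant and 31.0 ± 18.4 in wild-type cells (SD, n = 2 each). The difference was -2.71 in log2(peaks + 1), with p = 0.333 in a two-sided exact permutation test, the smallest p that 2 against 2 libraries allow. The 8 genes were chosen with these lists known, so neither this p nor the next can decide whether they differ between genotypes. The labels do not tie these libraries to separate cultures, and the p-value then measures only a spread that may be technical. As a share of each list the 8 genes took 7.55% (2.09 to 18.2) and 5.00% (1.04 to 13.9) in mutant libraries, against 4.37% (2.61 to 6.82) and 5.15% (3.77 to 6.86) in wild-type libraries. The difference was 1.51 percentage points (exact permutation p = 0.667, two-sided), which with 2 against 2 libraries does not show equal shares. Its direction changed with the genes and chromosomes used. Without Gm5458, which lies on chromosome 14, the shares were 1.89% and 0 of 60 in mutant libraries, against 3.64% and 4.57% in wild-type libraries. That difference was -3.16 points. Without chromosomes 10 to 13, which keeps all 8 genes, the shares were 9.09% and 6.38% in mutant libraries, against 10.8% and 13.2% in wild-type libraries, a difference of -4.24 points. Without chromosomes 10 to 14, which also drops the Gm5458 peaks, the shares were 2.56% and 0 of 41 in mutant libraries, against 11.5% and 17.5% in wild-type libraries.

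**Figure D4:**
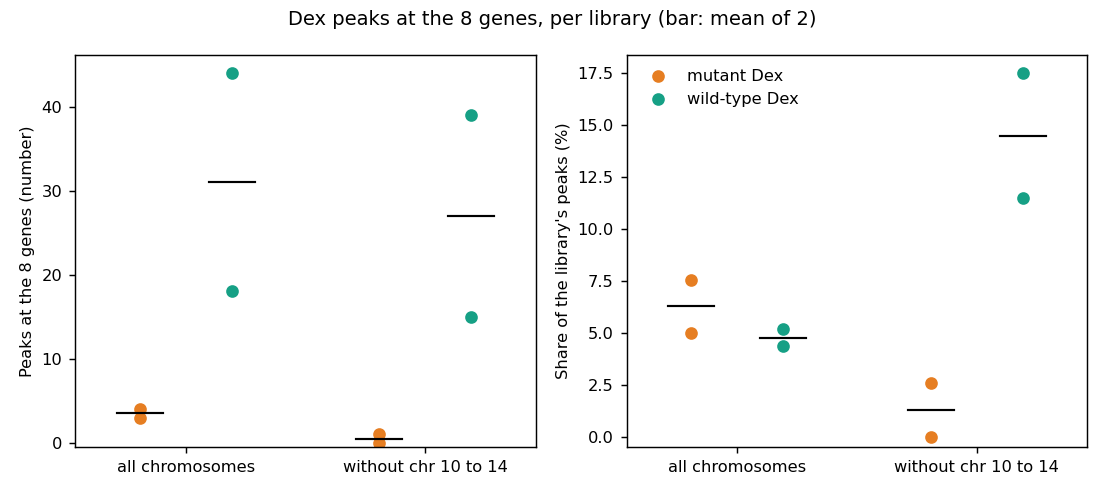
Dex peaks at the 8 genes per library, as a number and as a percentage of the library's list, over all chromosomes and without chromosomes 10 to 14. Points are libraries and bars are means of 2; the mutant points lie below the wild-type points in number, and in share they overlap over all chromosomes and lie below without chromosomes 10 to 14, which also drops the Gm5458 peaks.

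By gene, the mutant Dex libraries held 3 and 3 peaks at Gm5458, 1 and 0 at Zfp982, and none at the other 6 genes. The wild-type Dex libraries held 3 and 5 peaks at Gm5458, 2 and 9 at Zfp982, 6 and 15 at 6820431F20Rik and 4 and 12 at Gm21119. In these wild-type libraries Gm21190 had 2 and 2, Zfp709 1 and 0, Speer4cos 0 and 1, and 1700001F09Rik, with 71 Dex+LPS peaks, none. The widest Dex peak was that of Gm21119 (1010 bp, 20640179 to 20641188), then those of Gm5458 (1003 bp), 6820431F20Rik (969 bp), Zfp982 (610 bp), Gm21190 (548 bp), Zfp709 (441 bp) and Speer4cos (244 bp).

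Gm5458 stood apart from the other listed genes. At a distance of 175 kb from the gene, 3 places (19415727 to 19416323, 19416932 to 19417942 and 19418572 to 19418911 on chromosome 14) had a peak in both mutant and both wild-type Dex libraries. Together they make a run of 3.19 kb, and the nearest Dex+LPS peak lies 57.8 kb away. The first place measured 492 and 575 bp in mutant libraries and 508 and 499 bp in wild-type libraries. The second measured 991 and 705 bp in mutant and 998 and 1003 bp in wild-type libraries, and the third 334 and 340 bp in mutant and 335 and 336 bp in wild-type libraries. Mutant library 2 had the shortest peak at the second place and the longest at the other two.

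**Figure D5:**
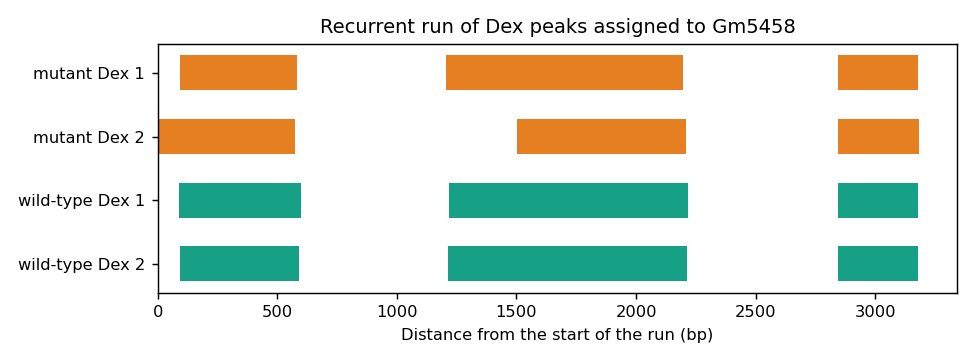
Dex peaks of the run assigned to Gm5458, as bars along the distance from its start (bp), 1 row for each mutant and wild-type library. The same 3 places carry a peak in all 4 libraries, over 3.19 kb.

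The 69 Dex peaks fell on 51 distinct places, 39 of them in 1 library, 9 in 2, 0 in 3 and 3 in all 4. Of the 7 mutant peaks, 6 (85.7%) recurred in the other mutant library, all at Gm5458, beside a background of 54.9%. Of the 62 wild-type peaks, 22 (35.5%, 23.7 to 48.7) recurred in the other wild-type library, beside a background of 28.9%. Outside Gm5458 the recurring wild-type places were 4 of 6820431F20Rik, 3 of Gm21119 and 1 of Gm21190 (15516568 to 15517126 on chromosome 5). All 7 mutant peaks overlapped a wild-type Dex peak, beside a background of 72.6%, among them the lone mutant peak of Zfp982 (147438448 to 147439057), found in wild-type library 2. Of the wild-type peaks, 7 of 62 (11.3%) overlapped a mutant Dex peak, beside a background of 7.11%.

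Dex peaks at these genes seldom coincided with Dex+LPS peaks. None of 7 mutant peaks overlapped one, beside a background of 1.77%, and 4 of 62 wild-type peaks (6.45%, 1.79 to 15.7) did, beside a background of 23.9% and 298 of 1204 (24.8%, 22.3 to 27.3) at the other genes. Yet they lay in the same stretches: 40 of the 51 places were within 5 kb of a Dex+LPS peak, and the median distance over the 51 was 2630 bp. At other genes 748 of 1056 places were that near, and the median over the 1056 was 793.5 bp. Knockout peaks were removed from the Dex+LPS lists and the knockout list was not used here, so a place absent from them may have been removed. The backgrounds also differ in chromosomes. Outside chromosomes 10 to 14 lay 15 of 18 and 39 of 44 wild-type Dex peaks of these genes, against 131 of 412 and 223 of 854 of all. Overlap was not counted by chromosome, so the lower share is not shown to be particular to these genes. Across the whole series 20 places had a peak in all 4 Dex libraries, and 0 of these overlapped a Dex+LPS peak.

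The part of a family's peaks that rests on the listed genes differed between families. Of 416 Zfp genes in RefSeq, 126 had a Dex+LPS peak and together held 359, of which Zfp982 and Zfp709 gave 24.5%. The median Zfp gene with a peak had 1, and the next after these 2 was Zfp608 with 19. Of 15 Speer genes 5 had a peak, with 24 in all and 12 at Speer4cos. Of their 22 wild-type peaks 1 was shared (4.55%, 0.115 to 22.8), beside a background of 15.7%. Genes with a provisional Gm name held 1198 peaks over 343 genes, 7.60% of them at listed genes. Names ending in Rik held 2112 over 705 genes, 3.36% of them at a listed gene.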

How the data were processed

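The deposited files give peak positions (1-based, mm10), the assigned gene and a distance to it; the authors' values are positions and not counts, scores or signal. Per the submitters' processing notes BWA 0.7.13, Picard 1.119, MACS2 2.1.0 and mm10 were used, without the step of each. Per the file names, the authors merged the Dex+LPS libraries by genotype and removed knockout peaks by steps that the sources used here do not describe. Pooled lists cannot show replicate spread.

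Peaks were taken with the authors' symbols and matched where they shared 1 bp or more, which gave the same answers as bedtools 2.31.1 on 500 simulated intervals. The 8 genes and the lists were chosen with earlier results of these data known. Named beside them were the 6 other genes with most Dex+LPS peaks and no span over 1 Mb, recurring Dex peaks and the widest Dex peak of each gene; promoters were chosen for printing after values were seen. Loci join gene extents within 20 kb. Near-copies came from BLAST 2.17.0. Gene identifiers matched RefSeq for 8717 of 8725. Dex libraries were compared by exact permutation. Alternatives were the pseudocount, chromosomes, overlap rule, peak width, gene assignment and leaving out a library. Python 3.11.15, pandas 2.3.3 and scipy 1.17.1 were used.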

Additional observations from a re-analysis of the deposited data

How the results depend on the processing

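The log2 difference in Dex peak number at the 8 genes, mutant minus wild type, ran from -3.33 to -2.09 when each library was left out, and kept its direction under every alternative tried. The mutant lists were shorter as a whole too, so this direction is not particular to the 8 genes. The difference in share ran from 0.239 to 2.79 percentage points when each library was left out. It turned to -13.2 without chromosomes 10 to 14, which also drops the Gm5458 peaks, and to -1.19 for peaks inside or within 10 kb of the gene as the files give it. Among alternatives chosen after seeing the data, it turned to -4.24 without chromosomes 10 to 13, to -0.943 for all peaks of the loci and to -3.16 without Gm5458, which also left 0 of 1 mutant peaks recurring (0%). With the replicate number as a block the values were -2.71 (exact p = 0.5) and 1.51 (exact p = 1.0); the labels do not say that a number marks a shared culture, and 2 pairs cannot go below 0.5. The shared fraction of wild-type Dex+LPS peaks was 29.5% with runs counted once. The median distance was 3085 bp within 10 kb of the gene and 1284 bp to the nearest peak of any gene. The causes were not tested. Of 40 alternatives 31 kept the direction, or for values without a test stayed within the interval of the main value. With peaks at least 300 bp wide the share difference was 3.97. No call of the exact permutation tests could change, because so few libraries hold p at 0.333 or more. A stricter peak threshold could not be set, since no score is given; depth is unknown.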

Other observations

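Between the first and last peaks of the 6 loci the Dex lists held 28 further peaks assigned to other genes, for a total of 4 and 3 peaks in mutant libraries and 31 and 59 in wild-type libraries. Of these 97 peaks 6 overlapped a Dex+LPS peak. The chromosome 8 locus held 0 and 0 of them in mutant libraries and 14 and 33 in wild-type libraries, and the joint locus of Gm21190 and Speer4cos 0 and 0 in mutant and 9 and 8 in wild-type libraries.

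The loci differ in their annotated genes. RefSeq places 22 genes in the chromosome 8 locus, 13 of them pseudogenes, and 15 in the Zfp982 locus, 10 of them pseudogenes. The Zfp709 locus holds 2 genes and no pseudogene and had the most peaks per 100 kb, and RefSeq places no gene between the first and last peak of Gm5458.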
